A study of Mus musculus with 4 samples.

Results

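Immediate early genes are switched on within minutes of a stimulus, without new protein synthesis, and their transcripts are short-lived. The 10 described here are Fos, Fosb, Jun, Junb, Egr1, Egr2, Ier2, Ier3, Atf3 and Klf6. They were taken by gene symbol, whatever their values, and each matched 1 of the 55426 rows of the deposited gene table. Of the 10 genes, 8 reached the mean of 1 FPKM over the 4 libraries that was required for testing, as did 13931 genes in all. Fosb and Egr2 lay below it. FPKM is a fragment count scaled to transcript length and sequencing depth.

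The libraries came from mouse retinal organoids at day 6, aggregates grown from pluripotent stem cells towards retinal progenitors. All 4 carried the same genotype, Mettl3 KO with a Dox-inducible HA-METTL3, in the Rx:GFP reporter line, and all were differentiated in medium with 5% KSR and 0.1 µM AGN, an additive that the labels do not explain. The comparison was of 2 untreated libraries with 2 libraries treated with 2 µg/ml Dox (doxycycline) for 6 days. METTL3 is the catalytic subunit of the enzyme that writes N6-methyladenosine (m6A) on RNA, a mark known for promoting decay of many transcripts, and the comparison asks which transcripts differ when the inducible copy is offered its inducer. The titles read EV and EV+Dox, and EV is not explained. Per the protocol, duplicates were prepared and sequenced in separate rounds, while the labels give all 4 libraries the same batch value. They do not say whether replicates were separate cultures, so the p-values measure only the spread between these libraries, which may be technical. m6A itself was not measured in these files.

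Low FPKM values move in steps of 1 fragment, and these steps gave fitted depths of 31800000 to 34700000 fragments per library. Mettl3 stood at 40.33 and 37.98 FPKM untreated and at 45.2 and 46.37 FPKM with Dox (log2 fold change 0.22, adjusted p = 0.122 in limma). The gene-level value does not separate the inducible copy from the knocked-out locus. The reporter and its driver gene separated the groups: eGFP was at 0.34 ± 0.113 FPKM untreated and 347 ± 19.5 with Dox, and Rax at 0.97 ± 0.212 and 214.6 ± 19.0 (SD, n = 2 each). The retinal progenitor marker Six6 was at 0.01 FPKM in both untreated libraries and at 79.22 and 92.44 FPKM with Dox. In the untreated libraries Rax and Six6 were thus near 0, while other genes of the eye field were present: Pax6 stood at 127.76 and 118.86 FPKM, Lhx2 at 26.72 and 24.3 and Six3 at 7.7 and 7.05.

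The genes fall into families by what their proteins do. Fos and Fosb encode partners that pair with the Jun proteins, encoded by Jun and Junb, to form the transcription factor AP-1. Atf3 encodes a related leucine-zipper transcription factor of the stress response. Egr1 and Egr2 encode zinc-finger transcription factors, the second known for hindbrain segmentation, and Klf6 encodes a Krüppel-like zinc-finger factor. Ier2 and Ier3 encode small proteins induced by growth factors, and Ier3 is linked to cell survival. Growth factor and calcium signals reach several of these genes through the MAP kinases, the factors SRF and TCF at the serum response element, and CREB at the cAMP response element.

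Upstream sequence is shown for Fos and Fosb, because their untreated replicates differed most among the genes searched, and for Junb, one of the genes higher with Dox. Windows of the RefSeq promoter table (GRCm38.p6) were searched for 8 of the 10 genes, without Ier2 and Egr1. The chromosome of Egr1 was left out of the search. Each line is the 250 bases before the annotated start, 5′ to 3′ on the gene's strand, with capitals at TGACG, the core of the cAMP response element, searched on both strands. The windows are chr12:85473640-85473889 (plus strand) for Fos, chr7:19310046-19310295 (minus strand) for Fosb and chr8:84978749-84978998 (minus strand) for Junb.
Fos: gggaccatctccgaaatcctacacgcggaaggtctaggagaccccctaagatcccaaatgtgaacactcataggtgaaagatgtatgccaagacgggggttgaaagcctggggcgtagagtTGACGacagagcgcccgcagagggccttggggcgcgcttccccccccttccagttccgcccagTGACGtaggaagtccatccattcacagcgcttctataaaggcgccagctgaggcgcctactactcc
Fosb: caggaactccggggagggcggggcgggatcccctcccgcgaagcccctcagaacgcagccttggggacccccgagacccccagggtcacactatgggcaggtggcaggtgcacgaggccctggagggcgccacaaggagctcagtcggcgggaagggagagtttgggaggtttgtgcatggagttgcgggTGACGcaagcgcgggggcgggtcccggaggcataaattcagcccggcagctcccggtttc
Junb: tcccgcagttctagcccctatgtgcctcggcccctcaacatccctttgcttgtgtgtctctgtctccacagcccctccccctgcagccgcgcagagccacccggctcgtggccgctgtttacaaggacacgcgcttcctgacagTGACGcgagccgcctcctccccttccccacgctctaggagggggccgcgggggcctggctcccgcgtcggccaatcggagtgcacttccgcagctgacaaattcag
TGACG or its reverse complement was present in such windows of 5 of the 8 genes, namely Fos, Fosb, Junb, Egr2 and Atf3, in at least 1 annotated window, against 17.9% of the 32536 distinct windows used. In Fos it began 129 and 66 bases before the start, in Fosb 60 and in Junb 106 bases before it. The full palindrome TGACGTCA, which contains TGACG, was in 0 of the 8 genes and 1.56% of windows. The AP-1 motif TGANTCA was in 0 of the 8 and 6.73% of windows. The CArG box, the core of the serum response element, was in 1 of the 8, Egr2, and in 1.48% of windows. For Egr2 several start sites are annotated, and any of them counted. The background counts windows rather than genes, whether tested here or not, so its shares are not in the same unit as the counts of genes. A match of letters, or its absence, describes these windows of 250 bases only, and sequence further upstream was not searched. The longer motifs were searched on both strands as well.

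Short-lived transcripts often carry AUUUA pentamers in the 3′ UTR, written ATTTA in the DNA letters of the annotation. In GENCODE M21 (GRCm38), 9 of the 10 genes held ATTTA in their longest annotated 3′ UTR, against 71.3% of 11585 tested genes with one. Ier2 was the exception, with 0 in 755 bases. Shown are 2 stretches of 30 bases, around the first place with most ATTTA copies in the 3′ UTRs of Fos (bases 643 to 672 after the stop codon) and Junb (bases 240 to 269), with ATTTA in capitals.
Fos: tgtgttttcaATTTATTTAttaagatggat
Junb: atatatttgtgtATTTAacagggaggggag
The count per kilobase of 3′ UTR was above the median of tested genes, 1.25, in 8 of the 10, with 8.16 in Ier3, 4.91 in Fos and 4.12 in Junb, and 0.434 in Fosb. GGACT, a common form of the m6A consensus, occurred in the transcripts with those 3′ UTRs of all 10 genes. The share of all tested genes with GGACT was not counted, so its presence is not read as a trait of these genes. Its frequency was highest in Ier2 at 3.29 per kilobase and lowest in Egr2 at 0.675, with a median of 1.04 over the tested genes. Whether any of these sites was methylated was not measured.

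Ier2 and Junb were the 2 immediate early genes that passed the test, both higher with Dox, and 0 of the 8 tested passed it as lower. At an unadjusted p below 0.05 in limma the same 2 of 8 were higher and 0 lower, where 23.9% of all tested genes lay below that p. Of all tested genes 9.31% passed the threshold, an adjusted p below 0.05 in limma: 4.44% were higher and 4.87% lower. With 8 genes tested, a count of 2 is too small to set apart from these shares. The median log2 fold change of the 8 genes was 0.29, beside -0.0042 over all tested genes. The groups did not overlap in 5 of the 8, Ier2, Junb, Jun, Ier3 and Klf6, a share close to the 53.4% of all tested genes. The smallest two-sided p that an exact permutation test can give for 1 gene in this design is 0.333.

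**Figure D1:**
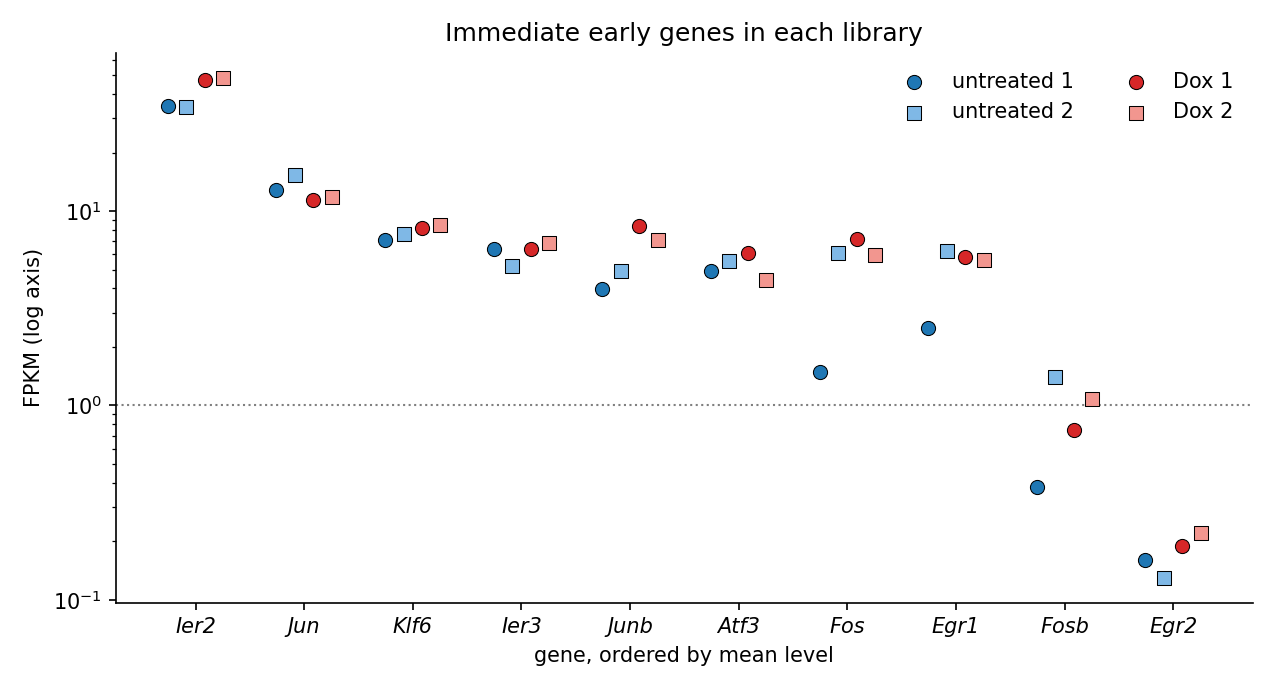
FPKM of the 10 immediate early genes on a log axis, ordered by mean level, with 1 point per library and a dotted line at 1 FPKM. Both Dox points of Ier2 and Junb lie above both untreated points, while untreated 1 lies alone at the bottom for Fos and Egr1.

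Ier2 (ENSMUSG00000053560), a gene of 1 exon on chromosome 8 (84661331 to 84662852, minus strand, GRCm38), was the most abundant of the 10. It was listed at 34.81 and 34.14 FPKM untreated and at 47.24 and 48.42 FPKM with Dox. Within each group the replicates lay close together, and every Dox value was above every untreated value. The means were 34.5 ± 0.474 and 47.8 ± 0.834 FPKM (SD, n = 2 each), a ratio of 1.39. In limma the log2 fold change was 0.46, with SE 0.0639 and adjusted p = 0.0109.

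Junb (ENSMUSG00000052837), which encodes the Jun protein often described as a brake on Jun-driven growth, lies on chromosome 8 (84974484 to 84978718, minus strand). It was listed at 3.95 and 4.93 FPKM untreated and at 8.39 and 7.11 FPKM with Dox. The groups did not overlap, and in each group the replicates stood further apart in relative terms than those of Ier2. The means were 4.44 ± 0.693 and 7.75 ± 0.905 FPKM (SD, n = 2 each). Limma gave the log2 fold change as 0.69, with SE 0.138 and adjusted p = 0.0387. An annotated exon of Junb overlaps Prdx2 on the opposite strand, and the strand setting of the counting is not given in the sources used here. Prdx2, a peroxiredoxin gene, stood at 703.91 and 729.78 FPKM untreated and at 782.05 and 705.8 FPKM with Dox (log2 fold change 0.05, adjusted p = 0.786), so its groups overlapped.

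Both calls were lost in each fit that left out any 1 library. In the 4 limma fits that each left out 1 library, in which the lone library of a group is assumed to vary like the other group, the log2 fold change of Ier2 ranged from 0.44 to 0.48 and its adjusted p from 0.0616 to 0.101. For Junb the log2 fold change ranged from 0.56 to 0.82 and the adjusted p from 0.0690 to 0.167. Without a filter on low values, Junb did not pass either (adjusted p = 0.149 in limma).

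Fos and Egr1 did not pass the test, and their values split the untreated replicates rather than the groups. Fos (ENSMUSG00000021250; chromosome 12, 85473890 to 85477273, plus strand, GRCm38) was listed at 1.49 and 6.12 FPKM untreated and at 7.2 and 5.92 FPKM with Dox. Untreated replicate 1 was the low library, and untreated replicate 2 lay inside the range of the Dox libraries. The means were 3.81 ± 3.27 and 6.56 ± 0.905 FPKM (SD, n = 2 each). Limma gave the log2 fold change as 0.84, with SE 0.473 and adjusted p = 0.358.

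Egr1 (ENSMUSG00000038418), a growth-factor-responsive gene often read together with Fos, was listed at 2.5 and 6.25 FPKM untreated and at 5.83 and 5.62 FPKM with Dox. Here too untreated replicate 1 stood below the other 3 libraries, and untreated replicate 2 was the highest of the 4. The means were 4.38 ± 2.65 and 5.73 ± 0.148 FPKM (SD, n = 2 each). Limma gave the log2 fold change as 0.42, with SE 0.332 and adjusted p = 0.515.

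Which untreated library was kept decided the call of both genes. Without untreated replicate 2, Fos was 1.60 higher with Dox in log2 units (limma, adjusted p = 0.0125) and Egr1 0.94 higher (adjusted p = 0.0349). They were then the 2 called genes of the 8, where 4.99% of 13918 genes were called, 2.34% higher and 2.66% lower. Without untreated replicate 1, the fold changes were 0.08 for Fos in log2 units (limma, adjusted p = 0.852) and -0.11 for Egr1 (adjusted p = 0.749). With that library left out, 0 of 9 tested immediate early genes passed, where 4.83% of 13943 genes were called, 2.38% higher and 2.45% lower. In that fit the log2 fold changes were 0.47 for Ier2, 0.56 for Junb and -0.37 for Jun.

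**Figure D2:**
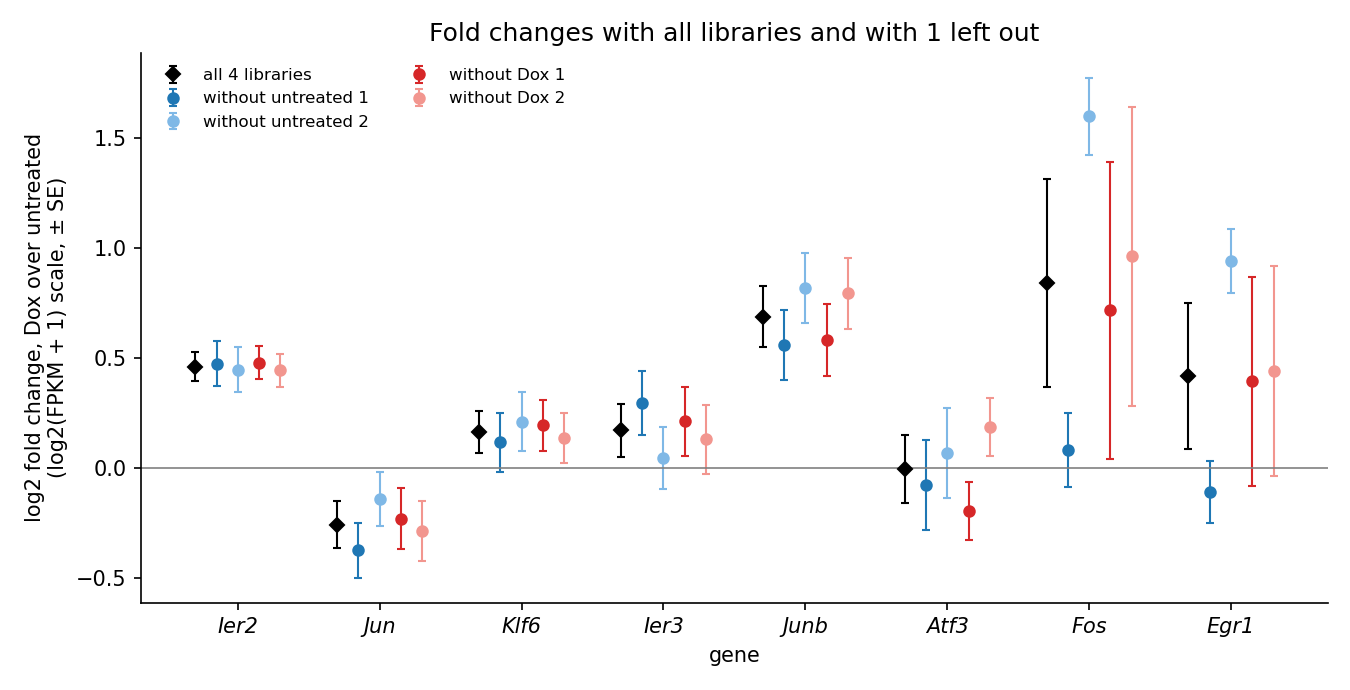
Log2 fold change of Dox over untreated, with its SE in limma, for the 8 tested immediate early genes, from all 4 libraries (black diamonds) and with 1 library left out (coloured points). Ier2 stays between 0.44 and 0.48, while Fos moves from 0.08 without untreated 1 to 1.60 without untreated 2.

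The gap of untreated replicate 1 was the widest of any tested protein-coding gene for Fos and the next widest for Egr1. The gap, a measure chosen after the values were seen, is the distance in log2(FPKM + 1) from untreated replicate 1 up to the lowest of the other 3 libraries. It was 1.47 for Fos and 0.92 for Egr1, ranks 1 and 2 among 11652 tested protein-coding genes, and no other gene reached 0.9. The third in rank was at 0.85. By the size of the difference between the untreated replicates in either direction, Fos ranked 4 and Egr1 ranked 9. Between the Dox replicates their ranks were 1592 and 9102.

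Fosb (ENSMUSG00000003545; chromosome 7, 19302696 to 19310051, minus strand, GRCm38), the close relative of Fos, showed the same order of the untreated libraries at a lower level. It was listed at 0.38 and 1.4 FPKM untreated and at 0.75 and 1.08 FPKM with Dox, with untreated replicate 1 the lowest. The group means were 0.89 ± 0.721 and 0.915 ± 0.233 FPKM (SD, n = 2 each). In the fit without a filter its log2 fold change was 0.07 (adjusted p = 0.929 in limma). Untreated replicate 1 was the lowest library in 5 of the 10 genes, Fos, Fosb, Egr1, Junb and Klf6, and in 20.3% of the tested protein-coding genes.

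The depth behind these values was estimated from the fitted depth and the longest annotated transcript. Fos rested on about 90 fragments in untreated replicate 1 (exact 95% Poisson interval 72 to 111) and 398 in untreated replicate 2 (360 to 439). Egr1 rested on about 341 (306 to 379) and 922 (863 to 983) fragments. Fosb rested on about 43 (31 to 58) and 172 (147 to 200). The intervals cover counting error only, and for none of the 3 genes do those of the untreated replicates meet. The same held for Jun, Junb and Klf6, the last with 848 to 967 and 991 to 1120 fragments. Between the Dox replicates, the intervals of Fosb (67 to 104 and 105 to 150) and Atf3 did not meet either. The fragment numbers are not scaled to depth, and intervals that do not meet do not set the 3 genes apart. The fitted depths of these libraries were 32100000 and 34700000 fragments.

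**Figure D3:**
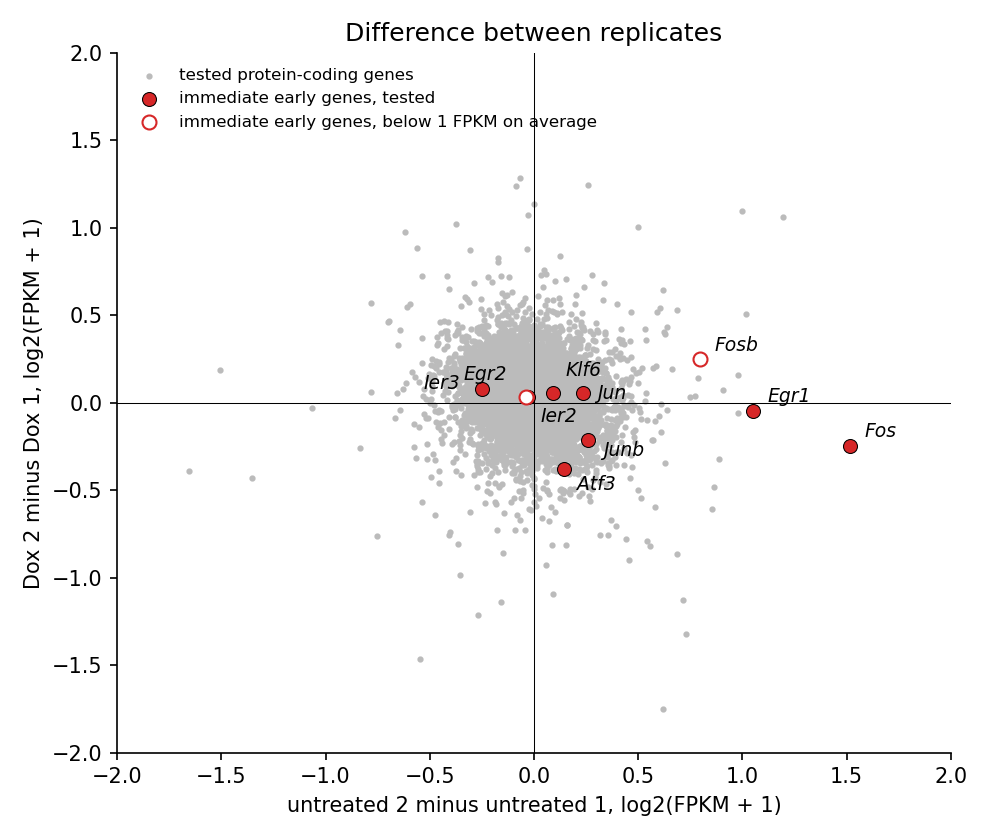
Difference between replicates on the log2(FPKM + 1) scale, untreated on the x axis and Dox on the y axis, for 11652 tested protein-coding genes (grey; 5 lie outside the axes) and the 10 immediate early genes (red; open where the mean is below 1 FPKM). Fos, Egr1 and Fosb lie far to the right at 1.52, 1.05 and 0.80, the other 7 genes lie nearer to 0 on the x axis, and Egr2 covers Ier2.

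The tested heat shock, related and cell type marker genes differed less between the untreated libraries than Fos, Egr1 and Fosb. Of the 12 tested heat shock and handling stress genes, 7 were higher in untreated replicate 2 than in replicate 1. Their median signed difference, replicate 2 minus replicate 1, was 0.02 on the log2 scale. The largest difference of any of them in either direction was 0.20. Among the 134 tested genes of all related lists, the widest difference between the untreated replicates was 0.43. It was that of Bhlhe40, a clock-linked repressor that was lower in replicate 2. Among the tested cell type markers the widest was 0.47, for Col1a1, at 1.72 and 0.96 FPKM in untreated replicates 1 and 2. The median absolute difference over tested protein-coding genes was 0.0901, which is not comparable with the signed median above, where rises and falls cancel. Summed FPKM was 149.1 and 146.6 for 6 neuron markers and 12.5 and 10.5 for 7 fibroblast markers in untreated replicates 1 and 2. For 5 macrophage markers it was at most 0.18 in any of the 4 libraries.

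Jun did not pass the test and had lower values with Dox. Jun (ENSMUSG00000052684; chromosome 4, 95049034 to 95052222, minus strand, GRCm38), the founding AP-1 member, was listed at 12.91 and 15.35 FPKM untreated and at 11.37 and 11.86 FPKM with Dox. The Dox libraries were the lower pair and did not overlap the untreated pair. In limma the log2 fold change was -0.26, with SE 0.106 and adjusted p = 0.219. Exons of Jun overlap the antisense gene Junos, which was at 0.27 to 0.51 FPKM in the 4 libraries. Jund, the third Jun gene and not one of the 10, stood at 126.72 and 122.04 FPKM untreated and at 99.96 and 103.75 FPKM with Dox, a log2 fold change of -0.29 that did not pass (adjusted p = 0.0558).

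Klf6, Ier3 and Atf3 did not pass the test. Klf6 (chromosome 13, 5861482 to 5870394, plus strand, GRCm38) was listed at 7.07 and 7.61 FPKM untreated and at 8.15 and 8.53 FPKM with Dox (log2 fold change 0.16, adjusted p = 0.363 in limma). Its Dox pair was the higher one, by less than 1 FPKM between the nearest libraries. Ier3 (chromosome 17, 35821684 to 35822923, plus strand) was listed at 6.38 and 5.21 FPKM untreated and at 6.41 and 6.84 FPKM with Dox (log2 fold change 0.17, adjusted p = 0.463), so untreated replicate 1 and Dox replicate 1 were nearly equal. Atf3 (chromosome 1, 191170296 to 191218039, minus strand) was listed at 4.91 and 5.54 FPKM untreated and at 6.07 and 4.43 FPKM with Dox, where the highest and the lowest value both came from Dox libraries (log2 fold change -0.0049, adjusted p = 0.988). The sign of the Atf3 value changed with rescaling to TPM (0.013) and between fits that left out 1 library.

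Egr2 was near the limit of detection. It lies on chromosome 10 (67535475 to 67542188, plus strand, GRCm38). It was listed at 0.16 and 0.13 FPKM untreated and at 0.19 and 0.22 FPKM with Dox, about 12 to 20 fragments per library. In the fit without a filter its log2 fold change was 0.07 (adjusted p = 0.408 in limma). The groups did not overlap, and the counting intervals of the libraries, 6 to 21 fragments at the lowest and 12 to 31 at the highest, did.

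FPKM is scaled to transcript length, so levels can be set side by side between genes. Mean levels over the 4 libraries were 41.2 FPKM for Ier2, 12.9 for Jun and 7.84 for Klf6, and the ranges of Ier2, Jun and Klf6 did not overlap. Ier3 (6.21), Junb (6.10), Atf3 (5.24), Fos (5.18) and Egr1 (5.05) followed, each with a range over the libraries that overlapped that of the next, so their order is not resolved. Klf6, from 7.07 to 8.53 FPKM, did not overlap its neighbour Ier3, but it overlapped Junb and Fos, which reached 8.39 and 7.2 FPKM in Dox replicate 1. Fosb (0.903) and Egr2 (0.175) lay below, with ranges clear of the genes above them.

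The related genes were described by lists, none of which includes the 10 genes. Of 134 tested genes in 8 lists, each counted once, 16 were called higher and 9 lower, or 18.7% beside 9.31% of all tested genes. The share comes from lists drawn up with earlier results of these data known, and nothing particular to them is read from it. Leaving out untreated replicate 1 left 13 calls among them, and leaving out untreated replicate 2 left 12.

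**Figure D4:**
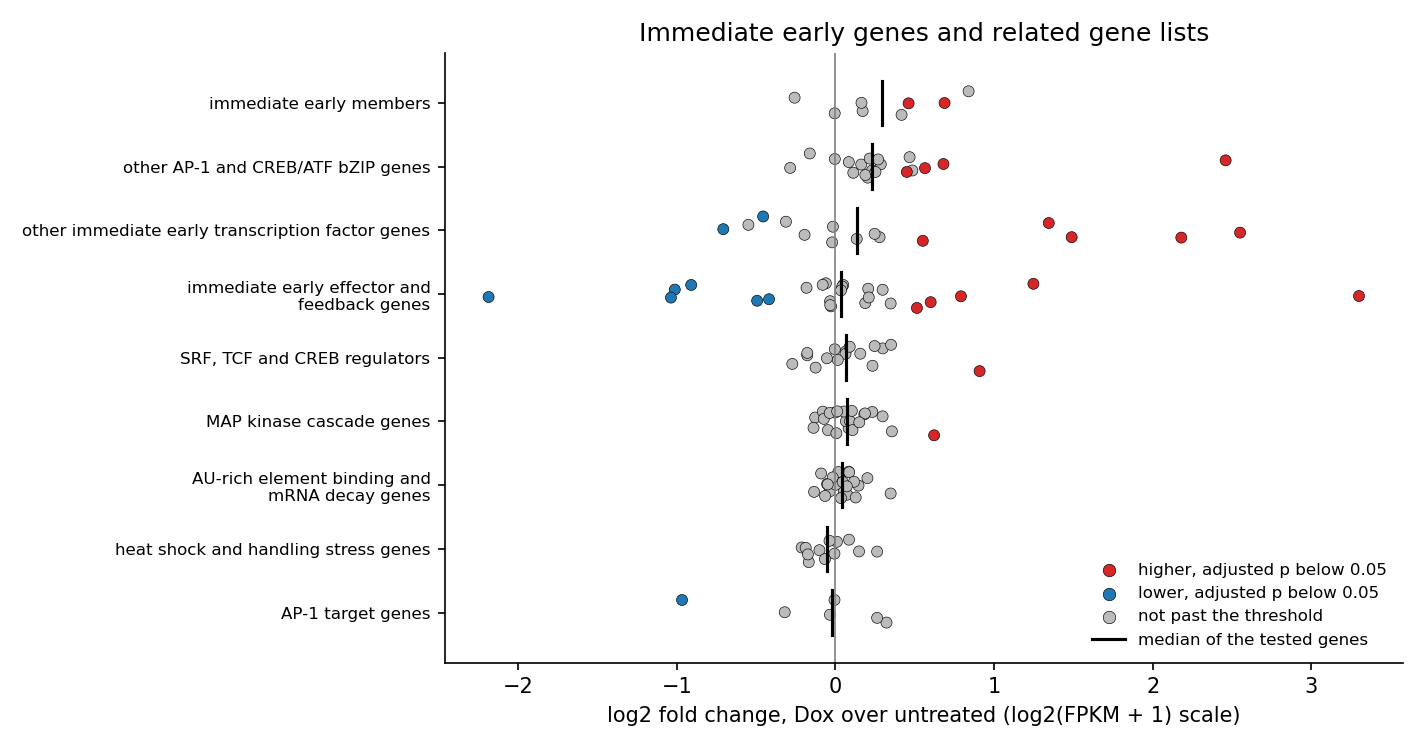
Log2 fold change of Dox over untreated for each tested gene of the immediate early genes and of 8 related lists, coloured by the call at an adjusted p of 0.05 in limma, with a bar at the list's median. Called genes lie on both sides in the 2 lists of other immediate early genes, and the lists of mRNA decay and heat shock genes have 0 calls.

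Of the 19 tested genes among other AP-1 and CREB/ATF leucine-zipper factors, 4 were higher and 0 lower (median log2 fold change 0.23). Maf, a large Maf factor of lens and neural development, rose from 3.28 ± 0.0919 to 22.7 ± 3.54 FPKM (SD, n = 2 each), which was 2.46 on the log2 scale (limma, adjusted p = 3.41e-04). Nfil3, a clock-linked repressor, had 0.68, the small Maf gene Maff 0.56 and the stress-responsive Atf5 0.45. The calls of Maff and Atf5 were lost with the values rescaled to TPM (adjusted p = 0.0621 and 0.0937 in limma) and in every fit that left out 1 library, and that of Nfil3 in 3 of those 4 fits. Fosl2 was at 1.21 to 1.66 FPKM in the 4 libraries (log2 fold change 0.08, adjusted p = 0.784), and Fosl1 was listed at no more than 0.12 FPKM.

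Among other immediate early transcription factor genes, 5 of 15 tested were higher and 2 lower (median 0.13). Id1, a dominant-negative partner of bHLH factors and a known BMP target, rose from 37.8 ± 1.90 to 226.2 ± 15.9 FPKM (SD, n = 2 each), which was 2.55 on the log2 scale (limma, adjusted p = 8.27e-05). Myc, a driver of growth, rose from 2.82 ± 0.0636 to 16.4 ± 2.76 FPKM, or 2.18 in log2 units (adjusted p = 6.34e-04). Ier5l had 1.49 and the Notch target Hes1 had 1.34. Tsc22d1 (0.55), Klf10 (-0.46) and Klf4 (-0.71) complete the calls and are named after their values were seen. Nr4a1, a stimulus-responsive orphan receptor gene, was at 4.52 and 4.0 FPKM untreated and at 4.14 and 4.25 FPKM with Dox (adjusted p = 0.946), and Egr3, Egr4, Npas4 and Nr4a3 were listed at no more than 0.24 FPKM.

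Among effector and feedback genes, 5 of 25 tested were higher and 6 lower (median 0.04). Phlda1, a pleckstrin-homology gene induced by growth factors, rose from 5.81 ± 0.912 to 65.9 ± 6.16 FPKM (SD, n = 2 each), which was 3.30 on the log2 scale (limma, adjusted p = 1.29e-04). Edn1, the endothelin gene, had 1.25. Gadd45g, a growth-arrest gene also known from neuronal differentiation, fell from 14.6 ± 1.36 to 2.43 ± 0.127 FPKM, or -2.19 in log2 units (adjusted p = 3.18e-04). The kinase gene Sgk1 had -1.04. Among phosphatase genes that damp MAP kinases, Dusp5 was higher (0.60, adjusted p = 0.0143), while Dusp1 (-0.03, adjusted p = 0.846), Dusp4 (0.04, adjusted p = 0.861) and Dusp6 (-0.08, adjusted p = 0.586) did not pass and Dusp2 was not tested. The Sgk1 call was lost without untreated replicate 1 (adjusted p = 0.0519) and without untreated replicate 2 (0.0590).

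The upstream machinery had counts too small to set apart from the 9.31% of all tested genes. Among SRF, TCF and CREB regulators 1 of 16 tested genes (6.25%) was higher, the ribosomal S6 kinase gene Rps6ka2 (log2 fold change 0.91, adjusted p = 0.0102 in limma), and 0 were lower. Srf itself was at 24.77 and 22.39 FPKM untreated and at 25.57 and 27.18 FPKM with Dox (adjusted p = 0.331). Among MAP kinase cascade genes 1 of 22 (4.55%) was higher, the scaffold gene Ksr1 (0.62, adjusted p = 0.0320), and 0 were lower. The Ksr1 call was lost with TPM (adjusted p = 0.0611 in limma) and in each of the 4 fits without 1 library, and that of Rps6ka2 in 3 of these. Of 22 AU-rich element binding and mRNA decay genes and 12 heat shock genes, 0 passed in either direction in limma, with medians of 0.04 and -0.05. At an unadjusted p below 0.05 in limma 1 of the decay genes was higher, Zfp36, and of the heat shock genes 1 was higher and 2 were lower. Among 6 tested AP-1 target genes 1 was lower, the intermediate filament gene Vim (-0.97), and 8 others of that list, the matrix metalloproteinase genes among them, lay below 1 FPKM on average.

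Cell type markers moved with the comparison, beside Ier2 and Junb. Of the retinal progenitor markers Rax, Six6, Six3 (log2 fold change 3.52) and Lhx2 (3.50) were higher with Dox, and Pax6, at 122.8 and 130.69 FPKM with Dox, did not pass (0.04, adjusted p = 0.796 in limma). Of 5 tested neuron markers 5 were lower, and summed FPKM of the neuron markers was 146.6 to 149.1 untreated and 82.1 to 85.9 with Dox. Of 5 tested fibroblast markers 2 were higher, Col1a2 and Pdgfra, and the sum of 7 was 10.5 to 12.5 FPKM untreated and 21.7 to 24.1 FPKM with Dox. Most of that difference was Col1a2, with a mean of 2.20 FPKM untreated and 12.1 FPKM with Dox, while the means of Col1a1, Col3a1, Dcn and Lum were lower with Dox. Of the endothelial markers Kdr was higher with Dox, at 0.22 and 0.25 FPKM untreated and 13.91 and 17.63 FPKM with Dox. The other 4 were too low to test: Cdh5 stood at 0.05 and 0.01 FPKM untreated and at 0.43 and 0.61 FPKM with Dox, Pecam1 at 0.53 to 0.89 FPKM, and Tie1 and Emcn at no more than 0.08 FPKM. Of 5 tested pluripotent cell markers and 3 surface epithelium markers 0 passed in limma, and at an unadjusted p below 0.05 Nanog was lower. The 5 macrophage markers all lay below 1 FPKM on average. In bulk libraries, more cells of a type and more RNA per cell cannot be told apart. The part of cell composition in the values of Ier2 and Junb was not tested.

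Nearest to Junb in profile over the 4 libraries were 5 tested genes, by the Euclidean distance of log2(FPKM + 1) centred on each gene's untreated mean, with predicted genes and pseudogenes left out. They were Slc7a7 (distance 0.0473), Rasgrp2 (0.0613), Ndufa1 (0.0774), Trnp1 (0.107) and S100a6 (0.107). With 4 libraries such a likeness is a description of these values only. Rasgrp2 and Ndufa1 also passed the test (adjusted p = 0.0410 and 0.0157 in limma), and Slc7a7 (0.0517), Trnp1 (0.0551) and S100a6 (0.0858) did not.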

How the data were processed

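Poly(A)-selected RNA of 4 organoid libraries was sequenced as paired ends. The authors deposited 1 table of FPKM values, 1 column per library, rounded to 2 decimals. STAR, Cuffdiff and the build mm10 are named, with no version, in the submitters' processing notes. The annotation release, the strand setting and filters are not given in the sources used here. Columns were matched to libraries by the library name, and groups came from the treatment label.

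Values were transformed to log2(FPKM + 1), so fold changes understate the change of low genes. All genes averaging 1 FPKM or more were fitted with limma 3.58.1 in R 4.3.3 (lmFit, eBayes with an intensity trend, no covariate). The two-sided p-values of the 13931 genes were adjusted by Benjamini and Hochberg's method and called below 0.05. Count models were not applied, since the unit is FPKM. The prior had 3.5 degrees of freedom. The fit was also run on simulated data with known changes, drawn with independent normal errors and the SDs estimated by the same fit. That run is not used as support for any call.

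The genes, the related lists and the naming rule were chosen with earlier results of these data known. Named were the 10 genes, Mettl3, Rax and eGFP, up to 4 called genes per related list by absolute fold change, and the 5 genes nearest in profile to Junb; others are named where a count or value required it.

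Depth was fitted in Python 3.11.15 (numpy 2.4.6) from values below 0.5 FPKM of single-transcript genes of 450 to 1200 nt, where 77.3% to 79.3% came within 0.1 of a whole fragment, against 20.0% for evenly spread values. Gene positions and 3′ UTRs came from GENCODE M21 and promoters from RefSeq, both GRCm38, the assembly also called mm10. The promoter search and its background left out 1 chromosome, that of Egr1, and no sequence of Egr1 is shown. The summed level of the retinal progenitor markers is not reported here. Alternatives were other pseudocounts, filters, scalings and variance settings, the replicate number as a block, and each library left out in turn.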

Additional observations from a re-analysis of the deposited data

How the results depend on the processing

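The calls of Ier2 and Junb, 2 in number, were also made with pseudocounts of 0.1 and 5, a minimum of 5 FPKM, TPM, median centring, quantile normalization, no trend and robust estimation. Without a filter on low values, which tests 27532 genes, 1 of the 10 genes was called, 745 genes in all instead of 1297 (336 higher and 409 lower), 10 of the related genes instead of 25 and 11 of the named genes instead of 21. With a minimum of 5 FPKM 821 genes were called. Leaving out 1 library in turn gave 0 to 2 calls among the 10 genes, 610 to 695 in all, 12 to 13 among the related genes and 12 to 13 among the named genes, from fewer libraries. The 2 were Fos and Egr1, without untreated replicate 2. In these fits the log2 fold change ranged from -0.11 to 0.94 for Egr1 and from -0.20 to 0.19 for Atf3, which was 0.013 with TPM. Fosb could be tested in 1 of them, without untreated replicate 1, at -0.33. Of 462 other values of 32 named genes, 5 changed sign, 51 lost the call and 13 gained it.

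The replicate block left 2 calls among the 10 genes, 1134 in all, 19 among the related genes and 19 among the named genes. It did not end the call of Ier2 or Junb (adjusted p = 0.0351 and 0.0467 in limma), and it ended those of Maff (0.0592) and Atf5 (0.0681). Per the protocol duplicates came from separate rounds, but the labels do not say which libraries shared a round. Whether the replicate numbers pair the libraries is therefore not known. The replicate differences of the groups had a Pearson r of -0.0435 and a Spearman rho of -0.28 across tested genes, which are not independent. With the numbers crossed, added after seeing the data, the block gave 1744 calls and 2 among the 10 genes.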

Other observations

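After Fos and Egr1, the protein-coding genes in which untreated replicate 1 lay furthest below the other 3 libraries were Gm38393 (gap 0.85 in log2(FPKM + 1)), Eya2 (0.63), Sct (0.60), Smim40 (0.58) and Rrm2b (0.52). Eya2, an eye-network gene, stood at 1.57 and 2.97 FPKM untreated and at 4.53 and 6.25 FPKM with Dox, so its groups did not overlap (adjusted p = 0.0734 in limma). Rrm2b, a ribonucleotide reductase gene, stood at 2.14 and 3.49 FPKM untreated and at 3.62 and 4.31 FPKM with Dox. These genes were picked after their values were seen, by rank alone.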
